A study of Mus musculus with 13 samples.

Results

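The 64 genes described here are all entries of the deposited count table whose Ensembl identifier carries a GENCODE M21 symbol made of Zfp9 and 2 further digits, out of 54532 genes in the table. Their symbols run from Zfp930 to Zfp995, and no measured value was used to choose them. Of the 64, 42 reached a mean of at least 1 count per 1000000 counts of a library (CPM) over 12 libraries, as 13993 genes of the whole table did, and the other 22 stayed below it. GENCODE M21 annotates 63 as protein coding and Zfp939 as a transcribed pseudogene.

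Most of these genes encode KRAB zinc finger proteins. In this family an array of C2H2 zinc fingers binds DNA, and an N-terminal KRAB box recruits the corepressor TRIM28 (KAP1) with the histone methyltransferase SETDB1, so that repressive chromatin is laid down at the bound site. Many family members bind endogenous retroviruses and other transposable elements, and many of the genes lie in clusters that have grown by duplication. 5-Aza-CdR (decitabine) is a nucleoside that traps DNA methyltransferases and lowers DNA methylation, and ADAR1i-124 is the study's inhibitor of adenosine-to-inosine editing by ADAR1, an enzyme that acts on double-stranded RNA (dsRNA).

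RNA came from Yumm1.7, an established mouse melanoma cell line labelled WT, and each of 13 libraries was the only one of its kind, so there were no replicates and no test was run. Total RNA was sequenced after DMSO, after 12 h in ADAR1i-124 at 10 μM, after 72 h in 5-Aza-CdR at 1 μM, and after both compounds. RNA of each of these 4 treatments was also precipitated with J2, an antibody against dsRNA, and with Z22, an antibody against left-handed Z-form RNA, and 1 library came from precipitation with IgG. For the combination, the study describes 5-Aza-CdR at 1 μM for 72 h and then ADAR1i-124 at 10 μM for 12 h, and the treatment behind the IgG library is not given in the sources used here. All compared conditions shared the one cell line, and all J2 and Z22 ratios shared the one IgG library.

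The tables held 17015425 counts for DMSO, 17617961 for ADAR1i-124 and 34571822 for 5-Aza-CdR in total RNA, and the 9 precipitates 8167960 to 15324595. The total RNA library of the combination held 1245894 counts that follow the strand opposite to the genes, and it enters no comparison. The Z22 library of DMSO stood apart, since the ribosomal-RNA-like locus Gm42418 took 34.9% of its counts against 10.6% to 18.9% in the other precipitated libraries. Of 7 melanocyte genes only Mitf passed 1 CPM, with a summed level of 22.3, 20.5 and 33.6 CPM in total RNA of DMSO, ADAR1i-124 and 5-Aza-CdR. The pigment genes Tyr and Tyrp1 were at 0 in the 12 libraries. Among genes listed for unpigmented melanoma, Axl stood at 1039 CPM in total RNA of DMSO, but Sox9 at 19.3 CPM and Ngfr at 0.12 CPM. The summed level of 3 fibroblast collagen and matrix genes was 64.5 CPM in DMSO, 333 CPM with ADAR1i-124 and 517 CPM with 5-Aza-CdR in total RNA. Most of it was Col1a2, at 60.2, 329 and 344 CPM. Col1a1 was at 3.88, 3.58 and 44.0 CPM and Dcn at 0.41, 0 and 129 CPM. In Z22 the fibroblast sum was 1120, 116, 20.4 and 75.3 CPM with DMSO, ADAR1i-124, 5-Aza-CdR and both. The sum of 2 endothelial genes was 4.06, 18.2 and 82.7 CPM in the 3 total RNA libraries. There 3 epithelial genes summed to 0, 0 and 4.05 CPM and 5 leukocyte genes to 0.59, 0.57 and 4.08 CPM. In J2 the order of the fibroblast sum was the reverse, at 369, 23.2 and 12.3 CPM with DMSO, ADAR1i-124 and 5-Aza-CdR, and 42.7 CPM with both. Col1a2 set that order, at 363, 22.8 and 5.56 CPM. Col1a1 (4.27, 0.28 and 3.76 CPM) and Dcn (1.97, 0.14 and 2.93 CPM) were lowest with ADAR1i-124. In J2 of the 4 treatments the endothelial sum was 8.45, 3.54, 61.6 and 60.7 CPM. The epithelial sum was 0.16, 0, 30.4 and 21.6 CPM there, against 0, 0.27, 22.4 and 10.5 CPM in Z22. The part of these differences in the values below was not tested, and in bulk RNA fewer cells of a type and less RNA per cell cannot be told apart.

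The predicted proteins of the 63 coding members held 0 to 21 C2H2 fingers with a median of 11, and 53 members had at least 7. A KRAB box was found in 60 members. The exceptions were Zfp957 and Zfp972, in which neither fingers nor a KRAB box were found, Zfp956, with 6 fingers and no KRAB box, and the pseudogene Zfp939. On the GRCm38 build, 43 of the 64 genes lay in 5 clusters, defined as at least 3 members with neighbours at most 1 Mb apart. The cluster on chromosome 4 (chr4:145510759-147848366) held 16 members, those on chromosome 2 (chr2:175372436-178078476) and chromosome 17 (chr17:21567008-22867134) held 10 each, that on chromosome 7 (chr7:42579783-43192109) held 4, and that on chromosome 8 (chr8:69209038-69749970) held 3.

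DNA methylation in mammals sits mainly at CpG sites, and the promoters of the members the results turn on are shown first. Each line gives the 250 bases before the transcription start, 5′ to 3′ on the strand of the gene, from RefSeq on GRCm38.p6, with CpG dinucleotides in capitals. Zfp931 (chr2:178078426-178078675, minus strand), Zfp970 (chr2:177464492-177464741, plus strand) and Zfp971 (chr2:178023034-178023283, plus strand) are the 3 detected members of the chromosome 2 cluster, which stood high in J2 precipitates of 3 of the 4 treatments. Zfp932 (chr5:109996277-109996526, plus strand) had the lowest mean ratio over them. Zfp949 (chr9:88547770-88548019, plus strand) had the largest increase with 5-Aza-CdR and Zfp959 (chr17:55891843-55892092, plus strand) the largest decrease.
Zfp931: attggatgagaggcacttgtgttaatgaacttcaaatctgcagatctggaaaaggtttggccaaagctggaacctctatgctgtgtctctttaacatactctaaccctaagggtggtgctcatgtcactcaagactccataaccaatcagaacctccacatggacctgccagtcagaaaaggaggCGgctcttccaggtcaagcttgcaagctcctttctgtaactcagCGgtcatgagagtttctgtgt
Zfp970: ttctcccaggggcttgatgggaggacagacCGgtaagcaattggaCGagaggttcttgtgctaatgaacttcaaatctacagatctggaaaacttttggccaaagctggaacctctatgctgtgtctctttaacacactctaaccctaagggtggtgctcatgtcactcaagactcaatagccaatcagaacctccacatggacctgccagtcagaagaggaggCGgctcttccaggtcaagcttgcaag
Zfp971: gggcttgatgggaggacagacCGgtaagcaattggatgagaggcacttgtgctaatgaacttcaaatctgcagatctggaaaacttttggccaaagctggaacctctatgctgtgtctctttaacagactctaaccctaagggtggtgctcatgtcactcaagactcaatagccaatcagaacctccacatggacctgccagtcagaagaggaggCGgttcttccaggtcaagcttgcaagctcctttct
Zfp932: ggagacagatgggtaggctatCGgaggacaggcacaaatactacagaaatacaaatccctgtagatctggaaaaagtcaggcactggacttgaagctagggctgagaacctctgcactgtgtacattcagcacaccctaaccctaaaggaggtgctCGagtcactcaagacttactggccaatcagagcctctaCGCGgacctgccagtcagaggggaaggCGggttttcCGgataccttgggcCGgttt
Zfp949: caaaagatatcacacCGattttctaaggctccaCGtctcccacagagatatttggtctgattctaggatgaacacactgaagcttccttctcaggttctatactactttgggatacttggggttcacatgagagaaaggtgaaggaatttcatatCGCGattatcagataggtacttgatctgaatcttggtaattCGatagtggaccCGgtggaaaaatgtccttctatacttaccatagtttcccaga
Zfp959: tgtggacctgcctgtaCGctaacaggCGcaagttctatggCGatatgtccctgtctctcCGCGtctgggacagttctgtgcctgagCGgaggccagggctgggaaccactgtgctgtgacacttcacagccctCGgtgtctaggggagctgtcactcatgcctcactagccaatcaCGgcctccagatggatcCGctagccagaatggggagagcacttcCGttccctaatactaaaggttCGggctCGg

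The chromosome 2 promoters were near copies of each other, with 97.5% identity over 241 aligned positions between Zfp970 and Zfp971 and 96.4% over 220 between Zfp931 and Zfp971. Zfp932, on another chromosome, still aligned to Zfp971 over 232 positions with 72.4% identity, whereas Zfp949 aligned to Zfp971 over only 15 positions. CpG sites numbered 2 in Zfp931, 3 in Zfp970, 2 in Zfp971, 7 in Zfp932, 6 in Zfp949 and 12 in Zfp959. Zfp949 and Zfp959, which moved in opposite directions with 5-Aza-CdR, both had such sites.

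A promoter was found for 50 of the 64 members and for 37 of the 42 above 1 CPM. Those 37 had a median of 7 CpG sites, and 8 of them (21.6%) had at least 10, against a median of 6 and 38.2% with at least 10 over the promoters of 27025 symbols. The letters CCAATCA, which extend the common promoter element known as the CCAAT box by 2 bases, stand in 5 of the 6 promoters above, and Zfp949 is the one without them. Searched on both strands of the same 250 bases, they occurred in 19 of the 37 promoters (51.4%), in 36 of 253 promoters of other Zfp genes (14.2%) and in 7.65% of all promoters. In all 27 members that held them they ran in the direction of the gene. The shorter CCAAT, which is contained in every copy of the longer motif, was in 26 of the 37 (70.3%) and in 34.5% of all promoters. The motif was chosen after the sequences had been read, promoters of duplicated genes share descent, and a match is a description of letters only.

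Detection differed between the clusters. All 10 members on chromosome 17 and all 3 on chromosome 8 passed 1 CPM, whereas 3 of 10 did on chromosome 2, 5 of 16 on chromosome 4 and 2 of 4 on chromosome 7, and 19 of 21 did outside the clusters. In DMSO total RNA the 42 detected members ranged from 1.12 to 44.8 CPM with a median of 7.02 CPM. Per kb of exon, Zfp948 on chromosome 17 was highest at 16.9 CPM per kb, followed by Zfp958 at 6.26, Zfp938 at 5.80, Zfp984 at 5.63 and Zfp971 at 5.21 CPM per kb. Zfp948 thus stood apart from the next 4, which were close to each other.

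Members whose sequence is copied elsewhere were often not detected. As a measure of copying, the share of 100-base windows in each gene's exons that occur once in GRCm38 was computed. Zfp965, Zfp966, Zfp967, Zfp968 and Zfp969 on chromosome 2 had no such window, and none had more than 5 counts in any of the 12 libraries. Of 10 members with some unique windows but at most 50%, 2 passed 1 CPM, of 16 with more than 50% and at most 90%, 12 passed, and of 33 above 90%, 28 passed.

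Unique sequence did not go with detection in every gene. On chromosome 4, Zfp985 was 97.9% unique and had 7 counts at most, and Zfp990 was 91.6% unique with 6 at most. Zfp977 on chromosome 7 was 100% unique with at most 19 counts. Outside the clusters, Zfp935 (96.4% unique) had 0 counts in all 12 libraries and Zfp957 (99.9% unique) had at most 1. The remaining members below 1 CPM were Zfp936 on chromosome 7, Zfp972 and Zfp973 on chromosome 2, and Zfp978, Zfp980, Zfp981, Zfp982, Zfp986, Zfp987, Zfp988, Zfp989 and Zfp993 on chromosome 4, with at most 1 to 29 counts each. How the authors' counting treated reads that match several places is not given in the sources used here, so a low count in a copied gene can mean little RNA or reads that were not assigned, which cannot be told apart.

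**Figure D1:**
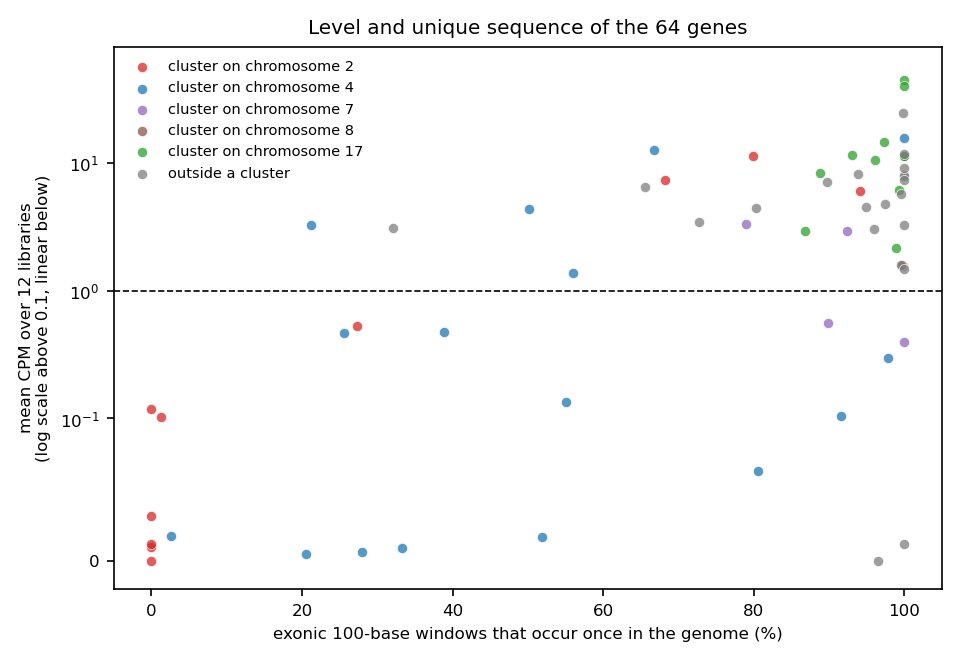
Each point is 1 of the 64 genes, coloured by cluster, with the share of its exonic 100-base windows that occur once in the genome (percent, x axis) and its mean CPM over 12 libraries (y axis, logarithmic above 0.1 and linear below). The 5 chromosome 2 genes at 0% on the left all lie far under the dashed line at 1 CPM, and 28 of the 33 genes above 90% lie over it.

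The first comparison asked how these genes changed after 72 h in 5-Aza-CdR, and DNA methylation was not measured in these libraries. With 5-Aza-CdR the members' levels stayed close to DMSO. At least 2-fold higher was 1 of 42, Zfp949, where 16.1% of all 13993 genes were, and at least 2-fold lower was 1 of 42, Zfp959, where 9.08% of all genes were. None of the 42 was 4-fold higher or lower, against 5.39% and 1.81% of all genes. The median log2 change of the members was -0.04, with 21 above 0 and 21 below, against 0.05 for all genes and 0.13 for 251 other detected Zfp genes, of which 24 (9.56%) were at least 2-fold higher and 6 (2.39%) lower. Log2 changes are of CPM plus 0.5, and 29 of the 42 lay within 0.5 of 0. The quartiles were -0.38 and 0.24 for the members, -0.46 and 0.63 for all genes and -0.18 and 0.43 for the other Zfp genes. Of all genes, 7303 were above 0 and 6689 below.

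Zfp949, a KRAB gene with 11 fingers, had 115 counts (6.76 CPM) in DMSO, 141 (8.0 CPM) with ADAR1i-124 and 499 (14.4 CPM) with 5-Aza-CdR. The 5-Aza-CdR library was the highest of the 3, and it stood 1.04 above DMSO on the log2 scale (95% interval 0.80 to 1.40). Intervals here are exact (Clopper-Pearson) ones of the count ratio without the added 0.5, and they cover counting error only. Zfp959, a KRAB gene with 9 fingers, had 146 counts (8.58 CPM), 134 (7.61 CPM) and 130 (3.76 CPM) in the same order. It was lowest with 5-Aza-CdR, by -1.09 on the log2 scale with an interval of -1.54 to -0.84. Both lay so near the 2-fold line that another scaling of the libraries moved Zfp949 under it. With TMM and DESeq2 scaling 0 members were at least 2-fold higher, against 14.7% and 14.4% of all genes. Those at least 2-fold lower were 2 with either, against 9.82% and 10.1%.

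After Zfp949 the largest increases were in Zfp991 (log2 change 0.84), Zfp964 (0.74), Zfp954 (0.72), Zfp974 (0.69), Zfp983 (0.67), Zfp950 (0.51) and Zfp952 (0.35). Zfp950, one of the best counted members, had 563, 424 and 1636 counts with DMSO, ADAR1i-124 and 5-Aza-CdR, which is 33.1, 24.1 and 47.3 CPM, so it was highest with 5-Aza-CdR and lowest with ADAR1i-124. After Zfp959 the largest decreases were in Zfp938 (-0.99), Zfp940 (-0.89), Zfp960 (-0.67), Zfp931 (-0.56), Zfp947 (-0.53), Zfp946 (-0.49) and Zfp961 (-0.49). Zfp938 had 210 counts (12.3 CPM) in DMSO, 126 (7.15 CPM) with ADAR1i-124 and 206 (5.96 CPM) with 5-Aza-CdR, and DMSO was the highest of the 3. By counting error alone, the interval lay above 0 in 10 members and below 0 in 14, against 41.6% and 37.7% of all genes, and intervals are narrower in genes with more counts.

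The clusters did not move as blocks. On chromosome 17 the 10 members ranged from -0.53 in Zfp947 to 0.67 in Zfp983, with a median of -0.10. Medians were -0.21 for the 3 detected members on chromosome 2, 0.15 for 5 on chromosome 4, -0.08 for 2 on chromosome 7, -0.23 for 3 on chromosome 8 and 0.14 for the 19 outside clusters. Within chromosome 8, Zfp964 was at 0.74 and its neighbours Zfp930 and Zfp963 at -0.36 and -0.23.

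Of the members below 1 CPM with 0 counts in total RNA of DMSO, Zfp936 alone had more than 3 with 5-Aza-CdR, where the others had 0 to 2, and it was chosen here after its values were seen. Zfp936, in the cluster on chromosome 7, had 0 counts with DMSO, 8 with ADAR1i-124 and 29 with 5-Aza-CdR in total RNA. Set against the 3 counts that a library at 0 allows, the observed counts were 4.76-fold higher with 5-Aza-CdR and 2.58-fold higher with ADAR1i-124. These folds leave out the counting error of the treated libraries and are not lower bounds. The exact intervals of the count ratio began at 1.86 and 0.72 on the log2 scale, and the latter lies under the 2-fold line. The gene also had 17 counts in J2 and 12 in Z22 precipitates with 5-Aza-CdR, 11 and 13 with the combination, at most 1 in either with DMSO, and 0 with IgG. The 4 precipitated libraries of cells given 5-Aza-CdR were thus the ones with more than 10 counts.

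The partners and relatives of these proteins gave the following values. Of 12 corepressor genes, 1 was at least 2-fold higher with 5-Aza-CdR and 1 lower, namely Atf7ip, a SETDB1 cofactor, at 1.32, and Cbx5, which encodes the heterochromatin protein HP1-alpha, at -1.37. Trim28 was at -0.64 and Setdb1 at -0.15. Of 4 detected DNA methylation genes, Dnmt1 was at -1.01 and Uhrf1, its partner at replication forks, at -1.58, and Dnmt3a and Dnmt3b were at 0.41 and -0.29. None of 6 detected KRAB zinc finger genes of known target passed the 2-fold line, with Zfp57 and Zfp445, which keep imprints methylated, at -0.11 and -0.05, and Zfp809, which silences murine leukaemia virus, at 0.37. Zfp568, which represses a placental transcript of Igf2, lay nearest the line, at -0.94 (interval -1.11 to -0.81), and it was past it at -1.02 with DESeq2 factors. Dnmt1 in turn was at -0.99 without the 20 most abundant genes. The zinc finger genes Zfp708 and Zfp42 had 0 counts in the 12 libraries. The housekeeping genes Actb and Gapdh were at -1.34 and -0.24.

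The second comparison asked how the same genes changed when ADAR1 was inhibited. With ADAR1i-124, 1 of 42 members, Zfp991, was at least 2-fold higher, against 7.36% of all genes, and 1 of 42, Zfp940, was at least 2-fold lower, against 8.61%. Both members fall out with a minimum of 5 CPM, and the call of Zfp940 also ended with a pseudocount of 2 CPM. None was 4-fold higher or lower, against 1.68% and 1.97% of all genes. The median log2 change was -0.15, with 14 members above 0 and 28 below. It was -0.09 for all genes, of which 6106 were above 0 and 7840 below. For the other Zfp genes it was -0.02, and 14 of them (5.58%) were at least 2-fold higher and 6 (2.39%) lower. This comparison uses the same DMSO library as the first.

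Zfp991 on chromosome 4 had 37 counts (2.17 CPM) with DMSO, 142 (8.06 CPM) with ADAR1i-124 and 148 (4.28 CPM) with 5-Aza-CdR. It was highest with ADAR1i-124, at 1.68 above DMSO on the log2 scale (interval 1.36 to 2.45), but only 21.1% of its exonic windows are unique, so reads of near copies may be counted in it. Zfp940, which has 10 fingers and is 99.6% unique, had 61 counts (3.58 CPM), 23 (1.31 CPM) and 59 (1.71 CPM) in the same order. It was lower with both compounds, by -1.18 (interval -2.22 to -0.74) with ADAR1i-124 and by -0.89 (interval -1.61 to -0.53) with 5-Aza-CdR. The other increases were led by Zfp954 (0.76), Zfp995 (0.54), Zfp941 (0.48), Zfp963 (0.38) and Zfp948 (0.37), and the other decreases by Zfp938 (-0.75), Zfp934 (-0.71), Zfp947 (-0.66), Zfp975 (-0.64) and Zfp931 (-0.53). Zfp954, at 6.05 CPM with DMSO, was at 10.6 CPM with ADAR1i-124 and 10.3 CPM with 5-Aza-CdR.

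Cluster medians with ADAR1i-124 were 0.10 on chromosome 17, -0.22 on chromosome 2, -0.05 on chromosome 4, -0.39 on chromosome 7, -0.14 on chromosome 8 and -0.30 outside clusters. Zfp948, the member with the highest level per kb, had 762 counts (44.8 CPM) with DMSO, 1019 (57.8 CPM) with ADAR1i-124 and 1232 (35.6 CPM) with 5-Aza-CdR. It was thus highest with ADAR1i-124 and lowest with 5-Aza-CdR, at log2 changes of 0.37 and -0.33. Among corepressors, Hdac1 at -1.04 was the 1 of 12 past the 2-fold line, and it was short of it at -0.99 with TMM and -0.97 with DESeq2 factors, and none of the DNA methylation genes or the KRAB genes of known target was.

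**Figure D2:**
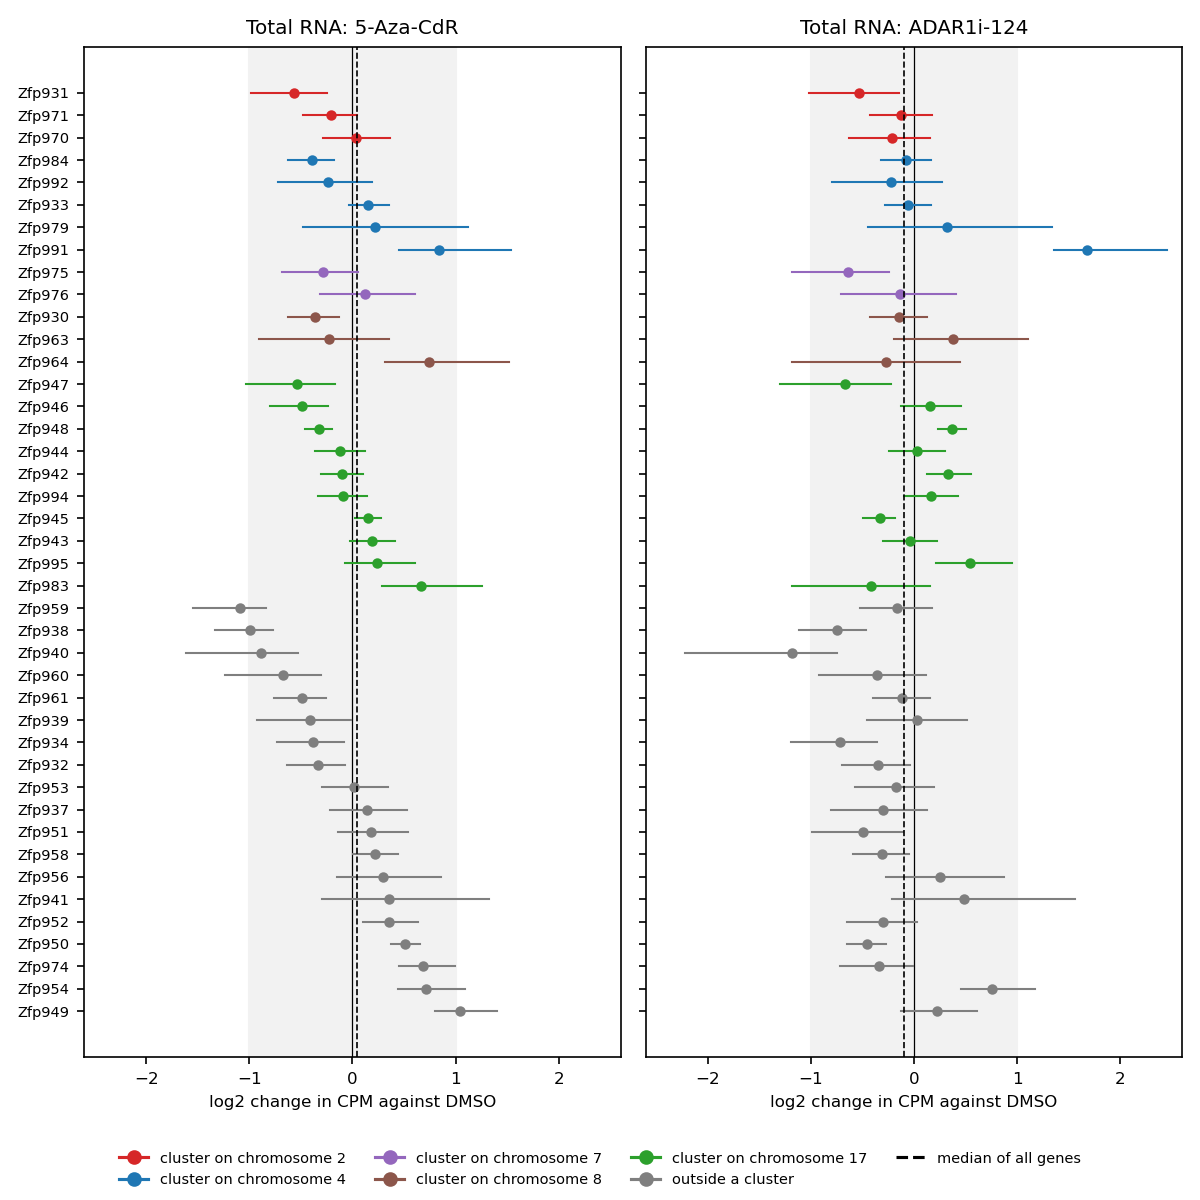
Log2 change in CPM against DMSO (x axis) of the 42 members above 1 CPM with 5-Aza-CdR (left) and ADAR1i-124 (right), coloured by cluster, with lines for the 95% exact interval of the counts and a dashed line at the median of all genes. Grey marks less than a 2-fold change, and in each panel 1 point lies past it on either side.

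The third comparison asked how much of these transcripts was precipitated as dsRNA. In J2 precipitates the median member was near its IgG level. The 3 detected neighbours on chromosome 2 stood above IgG with DMSO, ADAR1i-124 and the combination but not clearly with 5-Aza-CdR. Zfp950, outside the clusters, was among the 13 of 42 members above it in all 4 libraries, as 26.7% of all genes were. The median log2 ratio of the 42 members to IgG was 0.20, -0.01, 0.07 and 0.22 in the DMSO, ADAR1i-124, 5-Aza-CdR and combined libraries, against 0.01, 0.00, 0.07 and 0.14 for all genes. With DMSO 8 of 42 were at least 2-fold above IgG where 13.4% of all genes were, and 2 were at least 2-fold below it where 8.65% were. With ADAR1i-124 the members were 3 above (5.85% of all genes) and 0 below (4.47%), with 5-Aza-CdR 1 above (12.9%) and 1 below (5.45%), and with the combination 7 above (17.8%) and 0 below (7.79%). With TMM scaling the members above IgG numbered 5 rather than 8 with DMSO and 3 rather than 7 with the combination, and with DESeq2 factors the combination gave 4, whereas ADAR1i-124 gave 3 under either. Members below IgG with the combination were 2 under TMM, rather than 0. The share of members was near the share of all genes, with the larger gap at 5-Aza-CdR, where fewer members lay above IgG.

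The 3 members above IgG with ADAR1i-124 were Zfp931, Zfp970 and Zfp971. Zfp931, with a KRAB box and 7 fingers, had 66 counts (4.31 CPM) in IgG and 120 (9.85 CPM), 226 (15.7 CPM), 71 (5.34 CPM) and 135 (11.5 CPM) in J2 of the DMSO, ADAR1i-124, 5-Aza-CdR and combined treatments. Zfp970, with 14 fingers, had 76 counts (4.96 CPM) in IgG and 138 (11.3 CPM), 225 (15.6 CPM), 62 (4.66 CPM) and 105 (8.92 CPM) in J2. Zfp971, with 12 fingers, had 118 counts (7.70 CPM) in IgG and 203 (16.7 CPM), 280 (19.4 CPM), 120 (9.02 CPM) and 213 (18.1 CPM). In all 3 the J2 library of ADAR1i-124 was the highest and that of 5-Aza-CdR the lowest of the 4, close to IgG, although in Zfp971 ADAR1i-124 was only 0.22 above DMSO, with an interval of -0.04 to 0.49 that covers 0.

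As log2 ratios to IgG, the median of the 3 was 1.11, 1.56, 0.22 and 1.18 in the same order. Zfp931 with ADAR1i-124 was at 1.75 with an interval of 1.46 to 2.28, and with 5-Aza-CdR at 0.28 with an interval of -0.19 to 0.82. Within J2, 5-Aza-CdR against DMSO was -0.83 in Zfp931, -1.20 in Zfp970 and -0.85 in Zfp971, while the same contrast in total RNA was -0.56, 0.04 and -0.21. These genes are duplicates with 94.2%, 68.2% and 79.9% unique windows, so they do not count as 3 independent cases. When matched total RNA replaced IgG as the reference, their J2 ratio with DMSO was 0.56 in Zfp931, 0.68 in Zfp970 and 0.56 in Zfp971.

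Other members were high in J2 with DMSO and near IgG with ADAR1i-124. Zfp951 had 40 counts (2.61 CPM) in IgG and 131 (10.8 CPM), 45 (3.13 CPM), 38 (2.86 CPM) and 86 (7.31 CPM) in J2 in that order. Its ratio to IgG was 1.86 with DMSO, the highest of all members in that library, and 0.22 with ADAR1i-124. Zfp945, a gene with 18 fingers and the best counted member in J2, had 522 counts (34.1 CPM) in IgG and 878 (72.1 CPM), 459 (31.9 CPM), 841 (63.2 CPM) and 844 (71.7 CPM) in J2. It was near IgG in the ADAR1i-124 library only, at -0.09, and at 1.07, 0.88 and 1.06 in the other 3, and its change with ADAR1i-124 within J2 was -1.16 with an interval of -1.34 to -1.01. Zfp949 was likewise at 1.15 with DMSO and -0.29 with ADAR1i-124. Zfp931 and Zfp970, at 0.65 and 0.45 for ADAR1i-124 against DMSO within J2, thus had the opposite order of these libraries to Zfp945, Zfp949 and Zfp951, at -1.16, -1.43 and -1.63.

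Over the 4 J2 libraries the highest mean log2 ratios were 1.11 in Zfp931, 0.94 in Zfp971, 0.93 in Zfp950, 0.88 in Zfp951 and 0.85 in Zfp970. Zfp950 was above IgG in each, at 1.13, 0.76, 0.79 and 1.03, but against total RNA of the same treatment it was at 0.08 with ADAR1i-124 and -0.85 with 5-Aza-CdR. The lowest means were -0.99 in Zfp932, -0.47 in Zfp947, -0.41 in Zfp963, -0.32 in Zfp956 and -0.30 in Zfp940. Zfp932, a KRAB protein known to bind endogenous retroviruses, had 175 counts (11.4 CPM) in IgG and 55 (4.51 CPM), 95 (6.60 CPM), 65 (4.89 CPM) and 74 (6.29 CPM) in J2. All 4 were under IgG, with log2 ratios from -1.25 to -0.75, although Zfp956 was lower in the combination, at -0.83 against -0.81. Of the 42, 13 were above IgG in all 4 J2 libraries, as 26.7% of all genes were, and 4 were below in all 4, as 22.2% of all genes were. The 4 ratios share the IgG library and so are not independent.

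**Figure D3:**
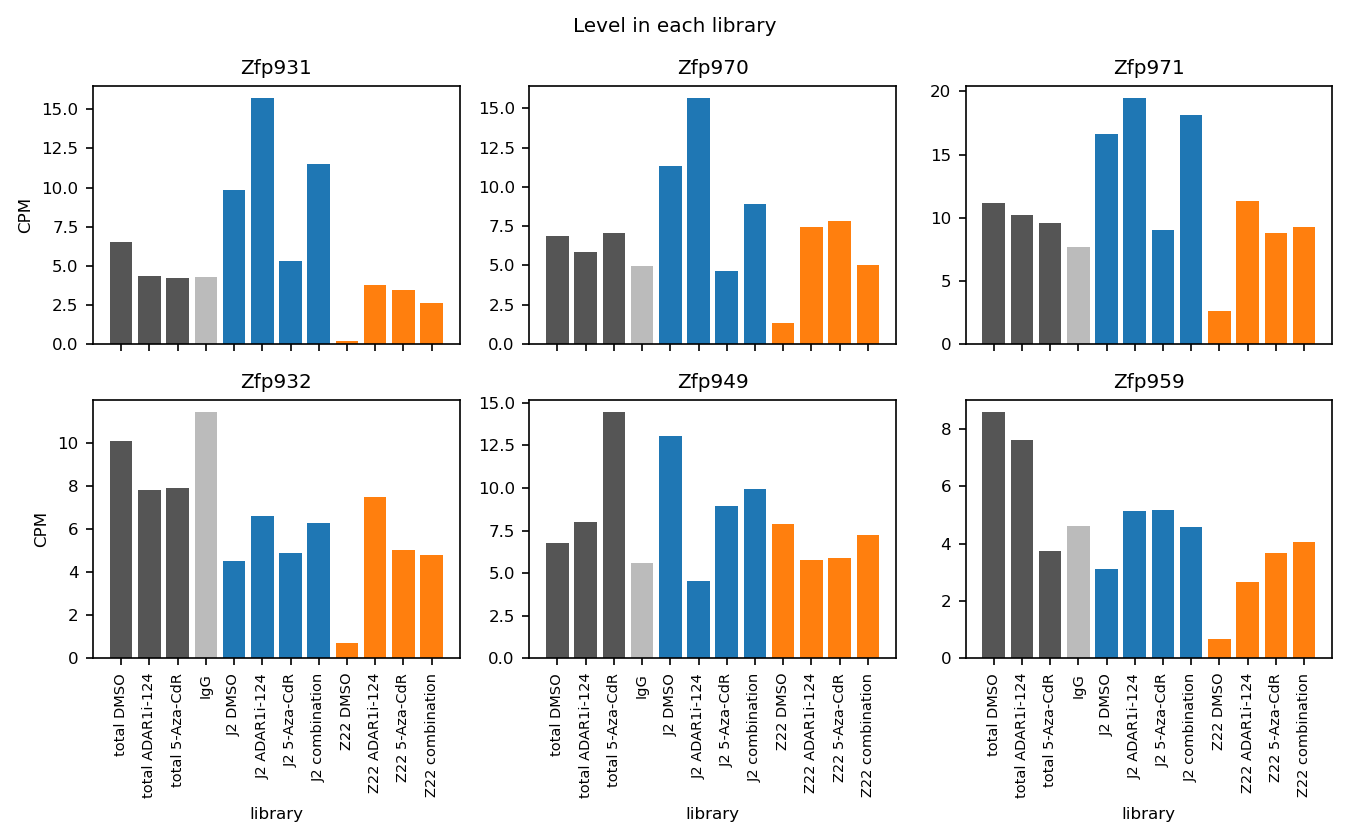
Level (CPM, y axis from 0) of 6 members in each of 12 libraries (x axis), with total RNA in dark grey, IgG in light grey, J2 in blue and Z22 in orange, 1 bar per library and no error bars because each condition has 1 library. In Zfp931, Zfp970 and Zfp971 the highest of the 4 J2 bars is that of ADAR1i-124 and the lowest that of 5-Aza-CdR.

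The fourth comparison used Z22 in place of J2. In the Z22 library of DMSO the members were scarce. The 42 members had 1 to 156 counts there with a median of 9, and 11 had 3 counts or fewer, against 12 to 651 with a median of 75 in IgG. All 64 members together made up 86.7 CPM in that library, and 297 to 337 CPM in the other 3 Z22 libraries, 380 to 460 CPM in the J2 libraries and 339 CPM in IgG. At least 2-fold below IgG were 36 of 42 members, where 42.7% of all genes were, and 0 were at least 2-fold above, where 10.5% were. The median log2 ratio was -1.87, against -0.74 for all genes and -0.84 for the other Zfp genes, so the members lay 1.12 below all genes, and by 1.27 and 1.29 with TMM and DESeq2 scaling. Of the 12 corepressor genes, 9 were below IgG in this library, where 9859 of all 13993 genes were. Among them were Cbx3 at -2.61, Hdac1 at -1.72, Trim28 at -1.48 and Setdb1 at -0.95. The 3 above it were Chd4 at 0.99, Atf7ip at 0.92, and Chd3, with 566 CPM against 141 CPM in IgG. The part of the high Gm42418 share in the members' values was not tested.

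Among members with more than 3 counts, those furthest below IgG in this library were Zfp930, with 7 counts against 237 in IgG and a log2 ratio of -3.62, Zfp932, with 6 against 175 and -3.33, and Zfp958, with 11 against 219 and -3.07. Zfp953 had 1 count against 74, too few to rank, with an interval of -10.7 to -2.87. The members not 2-fold lower were Zfp949 at 0.46, Zfp940 at 0.36, Zfp956 at -0.10, Zfp939 at -0.38, Zfp963 at -0.89 and Zfp945 at -0.91. Zfp949 had 69 counts (7.91 CPM) there and 86 (5.61 CPM) in IgG, and was at 5.80, 5.88 and 7.22 CPM in the Z22 libraries of the other 3 treatments. Unlike most members it was thus no lower with DMSO than with the other treatments.

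In the other 3 Z22 libraries the members were near IgG. The median log2 ratio was -0.26 for ADAR1i-124, -0.07 for 5-Aza-CdR and -0.02 for both compounds, against -0.02, 0.18 and 0.03 for all genes. With ADAR1i-124 the members numbered 0 at least 2-fold above IgG (7.49% of all genes) and 1 below (1.72%), which was Zfp983 with 12 counts against 37. With 5-Aza-CdR 1 was above (20.8%) and 1 below (5.2%), and with the combination 2 were above (17.1%) and 1 below (10.3%). Under TMM these counts were 0 above and 3 below, and 1 above and 2 below, and DESeq2 factors gave 0 above and 3 below with 5-Aza-CdR. By library totals Zfp941 was above in both, though at 1.01 with 5-Aza-CdR it lay on the line and was not past it with TMM or DESeq2 factors, and Zfp932 was below in both.

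Zfp941 was thinly counted, with 12 counts (0.78 CPM) in IgG and 1 (0.11 CPM), 13 (0.89 CPM), 17 (2.08 CPM) and 22 (2.41 CPM) in Z22 in the order used above. In J2 it had 12 (0.98 CPM), 13 (0.90 CPM), 35 (2.63 CPM) and 30 (2.55 CPM). With both antibodies its libraries of 5-Aza-CdR and the combination were above those of DMSO and ADAR1i-124, while its total RNA was 1.12, 1.76 and 1.56 CPM with DMSO, ADAR1i-124 and 5-Aza-CdR. Zfp992, the second member above IgG with the combination, was at 1.05 in both Z22 and J2, and 50.2% of its windows are unique.

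Over the 4 Z22 libraries the highest mean log2 ratios were 0.31 in Zfp941, 0.27 in Zfp939, 0.23 in Zfp949, 0.10 in Zfp951 and -0.05 in Zfp992, and the lowest were -1.54 in Zfp932, -1.27 in Zfp930, -1.18 in Zfp958, -1.10 in Zfp938 and -1.05 in Zfp947. These means lean on the DMSO library. Without it the highest were Zfp941 at 0.77, Zfp992 at 0.74, Zfp951 at 0.51, Zfp939 at 0.48 and Zfp970 at 0.39, with 4 of the 5 genes shared, and 4 of the lowest 5 were shared as well. Zfp932 was therefore low and Zfp941 high whether or not the DMSO library was counted.

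**Figure D4:**
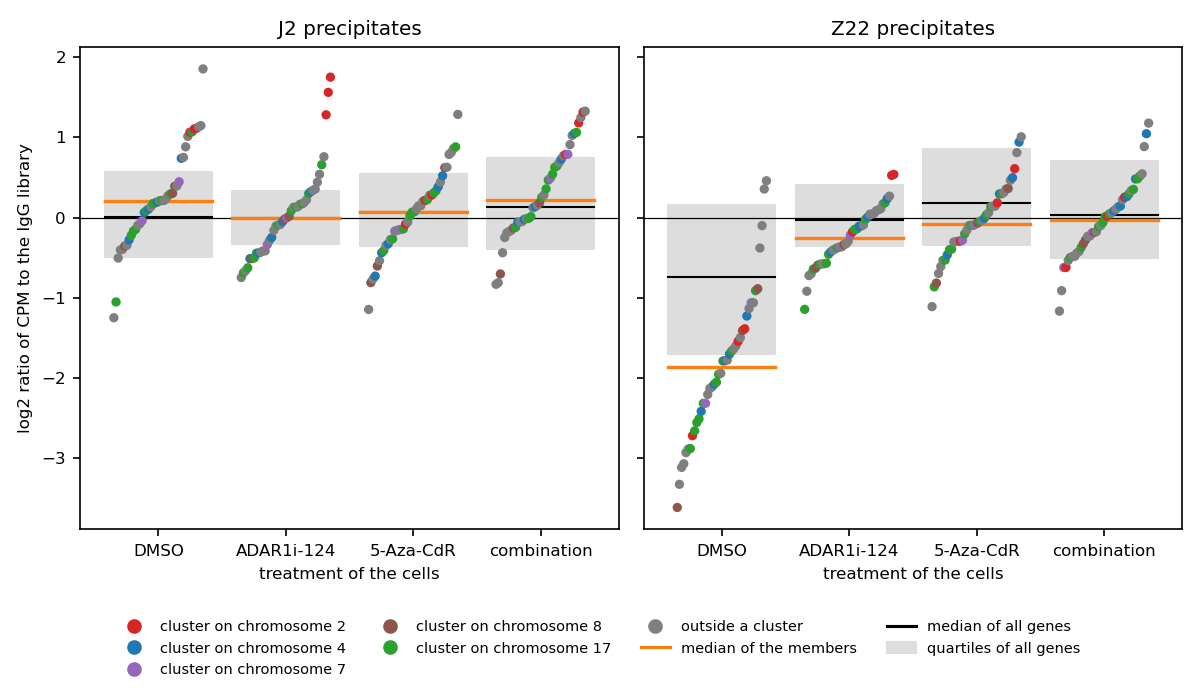
Log2 ratio to IgG, from CPM (y axis), of the 42 members in J2 (left) and Z22 (right) precipitates by treatment (x axis), 1 point per member coloured by cluster and sorted within each column, with the members' median in orange and the median and quartiles of all 13993 genes in black and grey. The 3 red points of chromosome 2 lie highest in J2 with ADAR1i-124, and the members' median in Z22 with DMSO is -1.87.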

How the data were processed

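Total and precipitated RNA was prepared as ribosome-depleted libraries per the labels. The deposited values are raw counts per gene, not normalized, which the authors made after aligning reads to mouse GRCm38 with STAR, in the standard RNA-seq pipelines of snakePipes. The counting program run there, its strand setting and the treatment of reads with several matches are not given in the sources used here. Identifiers were matched without version to GENCODE M21 (54495 of 54532 genes). CPM used the sum of each library, 0.5 CPM was added before log2, and genes averaging at least 1 CPM in 12 libraries were compared. No test was run because each condition has 1 library, calls are values past a 2-fold line, and 95% intervals of single genes are exact conditional binomial ones. The smallest number taken as detected is 3 counts, or 0.087 to 0.367 CPM in the 12 libraries. A same-strand neighbour overlapped 9 members, including Zfp934, Zfp941, Zfp953, Zfp956, Zfp963, Zfp983 and Zfp984 of the 42, and 3 members overlapped a gene on the other strand, so reads there cannot be assigned with certainty.

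Fingers were searched in translated GENCODE transcripts as C2H2 spacings (cysteines 2 to 4 residues apart, a loop of 12, histidines 3 to 5 apart). Named genes were the 8 largest increases and decreases with 5-Aza-CdR, the 6 largest with ADAR1i-124, the 5 highest and 5 lowest mean J2 and Z22 ratios, the 5 highest levels per kb, members below 1 CPM, fixed lists, and genes said to be chosen after their values were seen; further values were named for genes past the 2-fold line in a library. The members were set by symbol and not by a measured value, but earlier results of these data were known when the members, lists and alternatives were chosen. Python 3.11.15, pandas 2.3.3, scipy 1.17.1, Biopython 1.88, edgeR 4.0.16 (TMM) and DESeq2 1.42.0 (size factors) were used, the latter 2 for scaling alone. The fold and interval calculations were checked on simulated data.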

Additional observations from a re-analysis of the deposited data

Results flagged for a closer look

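The total RNA library of the combination enters no comparison, and 8 of the 64 members had more than 3 counts in it, the limit that a count of 0 allows. Zfp940 had the most with 46 counts, followed by Zfp974 with 39, Zfp963 with 34, Zfp950 with 33, Zfp972 with 14, Zfp971 with 9, Zfp931 with 6 and Zfp949 with 5. That library's counts follow the strand opposite to the genes, so these are no measure of the genes' own RNA.

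Zfp959 moved in opposite directions with 5-Aza-CdR in 2 kinds of library. Against DMSO it was at -1.09 in total RNA (146 and 130 counts) and at 1.81 in Z22 precipitates (6 and 30 counts). The difference between them was not tested, and the members as a whole were higher in Z22 with 5-Aza-CdR than with DMSO, with a median of 1.91 against 1.06 for all genes.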

How the results depend on the processing

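Of 164 values recomputed for the main counts and medians, 135 stayed within their bounds and 29 did not. The bounds of a median were its 95% interval over the members, which are not replicates. For a count they were a fixed ratio to the main count. Neither measures error between libraries. With 5-Aza-CdR the members at least 2-fold higher were 0 and those lower 2 with TMM and with DESeq2 factors, 3 were lower with a pseudocount of 0.1, 0 were higher or lower with one of 2, 2 were higher with no minimum, and 0 were lower with a minimum of 5 CPM. With ADAR1i-124 0 were lower with a pseudocount of 2, 0 were higher or lower with a minimum of 5 CPM, and 0 were higher without members under 50% unique sequence, an alternative chosen after seeing the data. At a 4-fold line all 4 counts were 0. The Z22 median of DMSO was -1.49 with TMM, -1.35 with DESeq2 factors, -2.26 and -1.21 with pseudocounts of 0.1 and 2, and -2.29 against total RNA, that of 5-Aza-CdR was -0.37, -0.31 and -0.35 with TMM, DESeq2 factors and against total RNA, and that of ADAR1i-124 was -0.46 against total RNA. The J2 median of DMSO was 0.32 without the 20 most abundant genes and -0.071 against total RNA, and that of 5-Aza-CdR was -0.21 against total RNA. The J2 ratio of Zfp950 with DMSO turned from 1.13 to -0.00044 against total RNA.

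Scaling moved the Z22 median of all genes with DMSO from -0.74 to -0.22 (TMM), -0.06 (DESeq2) and -0.39 (without the 20 most abundant genes), and members at least 2-fold lower there from 36 to 30, 26 and 33. Members above IgG in J2 were 5 with DMSO and 3 with the combination under TMM, against 8 and 7, and 4 with the combination under DESeq2 factors. No replicate could be left out or used as a block, since each group compared has 1 library, and a comparison of Z22 with J2 paired over the 4 treatments was not run. Low member counts limit the Z22 values of DMSO most, where 11 members had 3 counts or fewer. That library was not the shallowest, with 8727552 counts in all against 8167960 in Z22 of 5-Aza-CdR, where the members had 2667 counts against 757, and the cause was not tested.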

Other observations

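The detected genes between the members of a cluster were described in the same way. In the chromosome 2 cluster 7 of 61 other genes reached 1 CPM, all of them coding genes named Gm, and with 5-Aza-CdR they had a median of -0.78 on the log2 scale. Gm14305 was at -0.93, Gm14295 at -0.86 and Gm14410 at -0.78, and Gm14327, with 35 counts in DMSO and 26 with 5-Aza-CdR, was the 1 of 7 past the 2-fold line at -1.03. The 3 detected members of that cluster lay at -0.56, 0.04 and -0.21.

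In the other clusters the medians of the neighbours with 5-Aza-CdR were 0.13 for 11 on chromosome 17, -0.09 for 8 on chromosome 4 and 0.02 for 5 on chromosome 8, and the 1 on chromosome 7, the pseudogene Gm9294, was at -0.51 (and at -0.85 with ADAR1i-124). On chromosome 4, the lincRNA Gm13166 had 4 counts with DMSO and 30 with either compound, at 1.58 with ADAR1i-124 and 0.90 with 5-Aza-CdR. On chromosome 8, D130040H23Rik had 3 counts with DMSO, 17 with ADAR1i-124 and 81 with 5-Aza-CdR, at log2 changes of 1.12 and 2.07. On chromosome 17, Zfp760, a zinc finger gene outside the number range, had 266, 130 and 613 counts in the same order and was at -1.03 with ADAR1i-124 and 0.18 with 5-Aza-CdR.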
